A study of Saccharomyces cerevisiae with 11 samples.

Results

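The cell integrity kinase cascade of the budding yeast Saccharomyces cerevisiae was followed through 10 of its genes. They were PKC1, BCK1, MKK1, MKK2, SLT2, KDX1, RLM1, SWI4, SWI6 and PTP2. The members were chosen by name, as every probe set whose single gene symbol in the platform's gene table was one of these. Earlier results of these data were known at that choice, so shares of the members beside all probe sets are descriptions. They made up 10 of the 5656 genes that the arrays named, and 14 of the 8616 probe sets tested, because PTP2 was read by 5 probe sets and each other gene by 1. RNA was measured on 11 Affymetrix YG-S98 arrays, short-oligonucleotide arrays of the whole yeast genome. The fks1 mutant strain 5251, in which the gene for a catalytic subunit of the enzyme that makes wall glucan is mutated, was measured with 15 mM glucosamine (1 array) and untreated (1 array). BY4741, the parental wild type and a standard haploid strain, was measured with continuous glucosamine (3 arrays), with glucosamine for 2 h (3 arrays) and untreated (3 arrays).

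All cultures were kept in the rich medium YPD, diluted 50-fold from an overnight culture and harvested at an optical density of 1.6 to 1.8. Continuous glucosamine means that the sugar was present at 15 mM overnight and again in the medium after dilution. The wild-type 2 h cultures received 15 mM glucosamine some hours after dilution and stayed in it for 2 h, while for the treated fks1 culture the sample title gives 2 h. The description of that sample gives 2 h of growth before glucosamine was added and no length of exposure, so its exposure and stage of addition may not match those of the wild type. It is called 2 h fks1 below after its title. Glucosamine is an amino sugar that feeds the synthesis of chitin, a polymer of the cell wall. The labels number the replicates without saying that they came from separate cultures, so p-values reflect only how these arrays scatter, which can be a technical matter. Each fks1 group was a single array, so a p-value for it takes the lone array to vary as the wild-type groups did.

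In textbook accounts the cell integrity pathway watches over the yeast cell wall. Membrane sensors act through the small GTPase Rho1 on the protein kinase Pkc1, which activates a mitogen-activated protein (MAP) kinase cascade, Bck1 first, then the paired kinases Mkk1 and Mkk2, and last the MAP kinase Slt2. Slt2 acts on the transcription factor Rlm1, which drives cell wall genes, and on SBF, the complex of Swi4 and Swi6 that turns on genes of the G1 to S transition. Activation is a matter of phosphorylation, which RNA arrays do not measure. Some genes of the pathway, SLT2 and PTP2 among them, are known to be transcribed more when it is active.

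The values are hybridisation signals per probe set, scaled by the submitters so that every array had nearly the same trimmed mean (500.4 to 500.5). This scaling removes any difference in total RNA between cultures, and fewer cells with a transcript cannot be told apart from less of it per cell. Signals of different probe sets respond differently to their transcripts, so levels were compared between arrays within a gene and not between genes. Background control probe sets had a 95th percentile of 25.5 over 19 probe sets, and 76.7% to 81.3% of all probe sets read above it. FKS1 itself read 6.6 and 24.4 on the treated and the untreated fks1 array, under that percentile, against 6591.4 to 8256.7 on the 9 wild-type arrays. The ratio of the 3′ to the 5′ probe set of actin, a sign of RNA quality, ran from 1.24 to 1.54 and was highest on array 3 of the 2 h wild-type group.

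**Figure D1:**
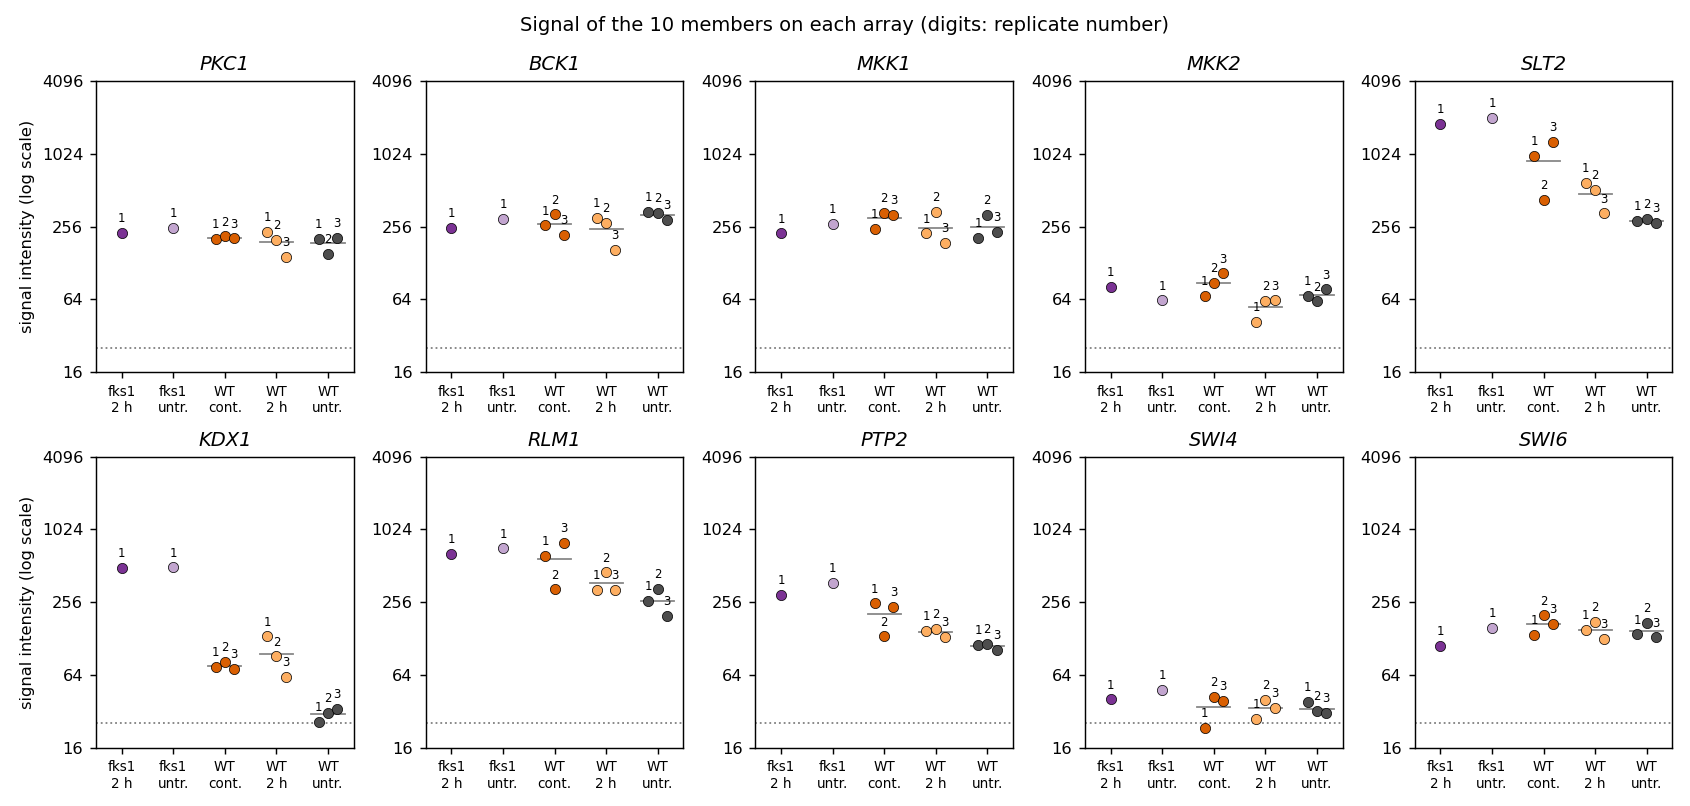
Signal of each of the 10 genes on the 11 arrays, 1 panel a gene, with groups on the horizontal axis and the signal on a log2 vertical axis. Digits are replicate numbers, grey bars are group means, and the dotted line marks the background control percentile of 25.5. SLT2, KDX1, RLM1 and PTP2 read higher on both fks1 arrays than in the untreated wild type, and the other 6 genes vary less between groups.

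The kinases at the top of the cascade differed less between groups than SLT2 did. PKC1, the protein kinase C that starts the cascade, read 225.6 on the treated and 247.8 on the untreated fks1 array, and its wild-type means were 206 ± 5.41 with continuous glucosamine, 190 ± 44.3 at 2 h and 187 ± 31.1 untreated (SD, n = 3 each). BCK1, the kinase that Pkc1 activates, read 250.1 and 297.3 on the same fks1 arrays, beside means of 267 ± 52.6, 247 ± 73.2 and 320 ± 27.6 in the wild-type groups in that order. Both genes overlapped between all wild-type groups, though BCK1 at 2 h (300.6, 275.8 and 163.3) reached into the untreated range of 288.3 to 340.1 by array 1 alone. MKK1, of the next tier, read 224.8 and 270.5 in treated and untreated fks1 cells and averaged 299 ± 45.8, 250.1 ± 77.9 and 253 ± 60.1 in the continuous, 2 h and untreated wild type. Its partner MKK2 read 81.0 and 62.6 in fks1 cells, and 68.1, 88.0 and 104.7 on the continuous wild-type arrays, against 41.3, 61.7 and 62.7 at 2 h and 68.6, 61.5 and 77.3 untreated. The continuous arrays of MKK2 lay above all 3 of the 2 h arrays and overlapped the untreated ones.

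SLT2, the MAP kinase at the end of the cascade, had a far wider range. Its signal was 1800.5 on the treated and 2032.3 on the untreated fks1 array. In the wild type it was 981.7, 423.1 and 1274.1 with continuous glucosamine, 585.4, 514.8 and 328.6 at 2 h, and 285.9, 293.7 and 274.9 untreated. Every array of the other groups thus lay above all untreated wild-type arrays, both fks1 arrays lay above every wild-type array, and the continuous and the 2 h arrays overlapped through array 2 of the continuous group. The spread was of very unequal size, with an SD of 432 around a mean of 893 in the continuous group, 133 around 476 at 2 h and 9.45 around 285 untreated.

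KDX1, also called MLP1, encodes the pseudokinase paralog of Slt2 that acts beside it on Rlm1. Its signal was 493.8 on the treated and 496.5 on the untreated fks1 array, and 74.7, 82.4 and 71.7 in the continuous wild type. At 2 h the wild-type arrays read 133.6, 91.3 and 61.2, against 26.1, 31.2 and 33.3 untreated, close to the background percentile of 25.5. All treated wild-type arrays lay above the untreated ones. KDX1 had its narrowest relative spread where SLT2 had its widest, at 76.3 ± 5.52 in the continuous group, and averaged 95.4 ± 36.4 at 2 h and 30.2 ± 3.70 untreated (SD, n = 3 each).

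Of the transcription factors, RLM1 had the widest range between arrays. RLM1 read 638.5 on the treated and 713.4 on the untreated fks1 array, 621.8, 327.2 and 787.7 in the continuous wild type, 324.5, 451.2 and 326.2 at 2 h, and 261.0, 332.2 and 196.4 untreated. Array 2 of the continuous group again fell short of the other continuous arrays and lay inside the untreated range. SWI4, the DNA-binding subunit of SBF, had low signals, 40.2 and 47.9 on the treated and untreated fks1 arrays and group means of 34.9 ± 9.95, 33.9 ± 5.90 and 33.8 ± 3.79 in the continuous, 2 h and untreated wild type. SWI6, its regulatory partner, read 111.1 and 157.4 in treated and untreated fks1 cells and averaged 169 ± 30.5, 151 ± 23.7 and 147 ± 22.3 in the same wild-type groups. The SWI4 and SWI6 arrays of the wild-type groups overlapped in every pairing.

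PTP2 encodes a tyrosine phosphatase that inactivates Slt2 and the related kinase Hog1. Its best-read probe set that is free of cross-hybridisation marks gave 295.9 on the treated and 368.4 on the untreated fks1 array, 250.1, 133.3 and 235.1 in the continuous wild type, 148.2, 154.0 and 133.1 at 2 h, and 112.8, 116.4 and 103.5 untreated. The order of the groups was that of SLT2, and array 2 was once more the low one of the continuous group. A further probe set, one that may bind related transcripts, read 270.0 and 383.5 in treated and untreated fks1 cells and 220.9, 125.2 and 239.7 in the continuous wild type, beside 163.2, 143.2 and 77.1 at 2 h and 78.3, 100.8 and 95.5 untreated. Of the 3 other PTP2 probe sets, 1 followed the same pattern at lower signals (134.5 at most), 1 was mostly under the background percentile and 1 was under it on all 11 arrays. Later values of PTP2 are those of the best-read probe set unless another is named.

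**Figure D2:**
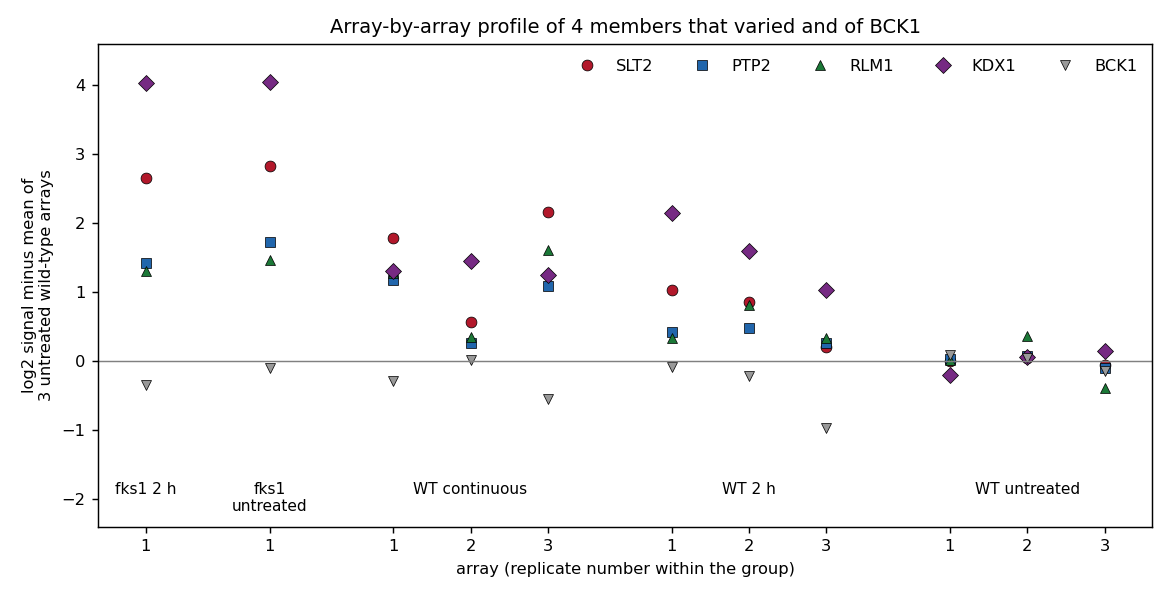
Log2 signal of SLT2, PTP2, RLM1, KDX1 and BCK1 on each array minus the mean of the 3 untreated wild-type arrays, with 1 marker a gene. Array 2 of the continuous group is low for SLT2, PTP2 and RLM1 beside arrays 1 and 3, and is not low for KDX1.

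Whether cells kept in glucosamine differed from untreated cells was asked first. With continuous glucosamine, SLT2 was 2.84-fold (log2 1.51, SE 0.36), KDX1 2.53-fold (log2 1.34, SE 0.28), RLM1 2.11-fold (log2 1.08, SE 0.32) and PTP2 1.79-fold (log2 0.84, SE 0.24) its untreated wild-type mean. For KDX1, whose untreated signals were close to the background percentile, the log2 difference ran from 1.00 to 1.42 over 18 alternative settings. No member passed the threshold, an adjusted p under 0.05 by limma with Benjamini-Hochberg adjustment over all 8616 probe sets, which 1.44% of probe sets passed (1.06% higher and 0.383% lower). The limma adjusted p was 0.0533 for KDX1, 0.0750 for SLT2, 0.121 for PTP2 and 0.136 for RLM1, and the second PTP2 probe set stood at log2 1.05 (adjusted p = 0.159). At an unadjusted p under 0.05 these 4 members passed, all higher, beside 7.16% of all probe sets that passed in that direction. SLT2, KDX1 and PTP2 were also higher on all 3 continuous arrays than on any untreated one, a pattern that 10.6% of probe sets showed.

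The other members stayed near their untreated level, from log2 -0.27 (BCK1, SE 0.25) to 0.31 (MKK2, SE 0.25). MKK1 was at 0.25, SWI6 at 0.19, PKC1 at 0.16 and SWI4 at 0.01. In all, 9 of the 10 members had a positive difference, against 52.4% of all probe sets, and the median was 0.28, against 0.02. SWI4 among them became negative after quantile normalisation (-0.03) and with arrays set to 1 median (-0.05). The share of calls that were higher depended on the scaling, since 73.4% of calls were higher in the deposited values, against 61.9% after quantile normalisation and 58.9% with arrays set to 1 median. Array 2 of the continuous group decided the call of SLT2, which passed without it (log2 1.97, adjusted p = 0.0308 by limma). KDX1 passed without array 1 (adjusted p = 0.0354 by limma) or array 3 (0.0322) of the 2 h group, which enter the fit through the shared spread.

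On array 2 of the continuous group the actin 3′ to 5′ ratio was 1.37, against 1.29 on both other continuous arrays. The mean log2 signal of 12 SBF and MBF target genes, which mark cells near the G1 to S transition, was 0.27 there relative to untreated cells, against -0.34 and -0.24 on arrays 1 and 3. That of 10 general stress genes was -1.38, against -1.45 and -0.38, and so did not set array 2 apart. The part of these values in the low SLT2, RLM1 and PTP2 signals was not tested.

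After 2 h of glucosamine the same 4 genes had positive differences, with that of KDX1 the widest. KDX1 was 3.02-fold its untreated wild-type mean (log2 1.59, SE 0.28), the fourth highest of all 8616 differences. That mean was close to the background percentile, and over 18 alternative settings the log2 difference ran from 1.22 to 1.88. SLT2 was 1.62-fold (log2 0.70, SE 0.36), RLM1 was at log2 0.50 (SE 0.32) and PTP2 at 0.39 (SE 0.24). BCK1 lay lower at -0.42 (SE 0.25) and MKK2 at -0.34 (SE 0.25), while PKC1, MKK1, SWI4 and SWI6 lay within 0.04 of 0. No member passed the threshold of limma, which 0.0348% of probe sets passed, and the adjusted p was 0.298 for KDX1 and 0.857 for SLT2. At an unadjusted p under 0.05, KDX1 was the 1 member that passed, beside 6.06% of all probe sets. SLT2, KDX1 and PTP2 were higher on all 3 arrays than on any untreated one, as 4.64% of probe sets were. Of the 10 members 6 had a positive difference, against 46.1% of all probe sets, with a median of 0.02, against -0.02.

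The labels state no pairing, but arrays of the 2 h and the untreated wild-type group that share a number deviated together. Their differences are therefore described pair by pair, on a pairing taken from these same data. From array 1 to 3, the log2 difference of KDX1 was 2.36, 1.55 and 0.88, and that of SLT2 was 1.03, 0.81 and 0.26. RLM1 differed by 0.31, 0.44 and 0.73, and PTP2 by a nearly even 0.39, 0.40 and 0.36. Both further PTP2 probe sets that read above background were lower in pair 3, at -0.31 and -0.53. The smallest steps of KDX1 and SLT2 were on array 3, whose actin ratio of 1.54 was the highest of all arrays, and its part in them was not tested. The differences of BCK1 were -0.18, -0.26 and -0.82. In a fit of these 6 arrays alone limma called 0 probe sets without and 17 with the replicate number as a block, no member among them. The adjusted p of KDX1 was 0.0883 with the block and 0.625 without it.

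Continuous exposure was also set against 2 h directly. SLT2 stood at log2 0.81 (SE 0.36), RLM1 at 0.58 (SE 0.32) and PTP2 at 0.46 (SE 0.24), higher in the continuous group, and KDX1 at -0.25 (SE 0.28, 95% interval -0.89 to 0.38). Limma called 0 of the 10 members, beside 0.0580% of all probe sets, with an adjusted p of 0.360 for SLT2. MKK2 was the 1 member with an unadjusted p under 0.05 (log2 0.66, SE 0.25, adjusted p = 0.300), beside 14.0% of all probe sets. It was also the 1 member whose continuous arrays all lay above the 2 h arrays, as 11.5% of probe sets did. SLT2 and KDX1 therefore had different orders of the group means, continuous above 2 h for SLT2 and 2 h above continuous for KDX1, and in neither gene did these neighbours differ beyond their spread.

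**Figure D3:**
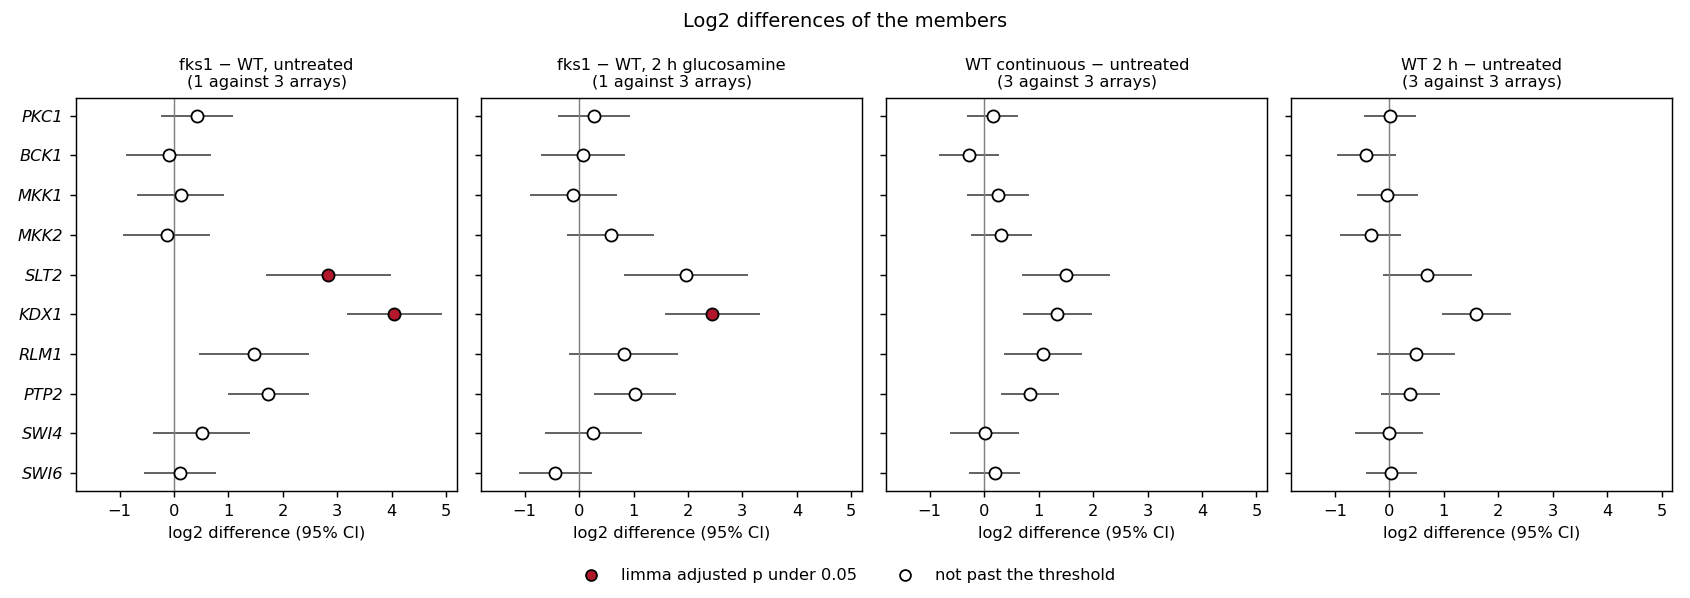
Log2 difference of each of the 10 genes in 4 comparisons, 1 panel each, with 95% intervals from limma. Red marks an adjusted p under 0.05 over all probe sets, which KDX1 passed in both fks1 comparisons, SLT2 passed in untreated fks1 cells and no member passed in the wild-type comparisons.

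The fks1 strain was then set against the wild type without glucosamine. KDX1 was 16.5-fold its wild-type mean (log2 4.05, SE 0.39), the third highest of all 8616 differences, and SLT2 was 7.14-fold (log2 2.84, SE 0.51). The untreated wild-type signals of KDX1 were close to the background percentile. Over 16 alternative settings its log2 difference ran from 3.47 to 4.12. PTP2 was 3.33-fold (log2 1.73, SE 0.34) and RLM1 2.77-fold (log2 1.47, SE 0.45). These 4 genes met a fold rule, a signal at least 2-fold above each untreated wild-type array, that 2.59% of all probe sets met in that direction. In the fit of all 11 arrays limma called KDX1 (adjusted p = 0.00155) and SLT2 (adjusted p = 0.0477) higher, beside 0.592% of all probe sets called (0.418% higher and 0.174% lower), while PTP2 had an adjusted p of 0.0647 and RLM1 of 0.212. KDX1 kept its call without any 1 of the 9 wild-type arrays, with an adjusted p between 0.000505 and 0.00915.

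The call of SLT2 was lost without any 1 of the 3 untreated arrays, array 1 or 2 of the 2 h group or array 1 of the continuous group, with an adjusted p between 0.0054 and 0.132 over the 9 fits, though its log2 difference stayed between 2.81 and 2.86. PTP2 passed in the fit without array 2 of the continuous group (adjusted p = 0.0146), and its second probe set stood at log2 2.08 (adjusted p = 0.107 by limma with all arrays). The other members lay between log2 -0.14 (MKK2) and 0.51 (SWI4, SE 0.40), with PKC1 at 0.42, MKK1 at 0.12, SWI6 at 0.11 and BCK1 at -0.10, and met neither rule. Their intervals were wide, for example -0.24 to 1.09 for PKC1. In all, 8 of the 10 members were positive, against 60.0% of all probe sets, with a median of 0.47, against 0.12.

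The median difference of 0.12 over all probe sets depended on the scaling, since it became -0.02 after quantile normalisation and -0.08 with arrays set to 1 median. Relative to the median of 0.12, KDX1 stood at 3.93, SLT2 at 2.71, PTP2 at 1.61 and RLM1 at 1.35, while SWI4 stood at 0.39, PKC1 at 0.30, BCK1 at -0.22 and MKK2 at -0.26. MKK1 and SWI6 changed sign with the scaling. MKK1 was at -0.09 with arrays set to 1 median, and SWI6 at -0.08 after quantile normalisation and -0.10 with 1 median. Of all limma calls 70.6% were higher in the deposited values, against 49.0% with arrays set to 1 median.

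Between the cultures titled 2 h of glucosamine in each strain, KDX1 and SLT2 again stood out in fks1 cells. KDX1 was 5.44-fold its mean in 2 h wild-type cells (log2 2.44, SE 0.39) and SLT2 3.89-fold (log2 1.96, SE 0.51). Both lay at least 2-fold above each of the 3 wild-type arrays, as 2.50% of probe sets did. In all, 8 of the 10 members were positive, against 57.3% of all probe sets, and BCK1 among them changed sign with the scaling. PTP2 was at log2 1.03 (SE 0.34) and RLM1 at 0.82 (SE 0.45), and MKK2 at 0.58 (SE 0.35) and SWI6 at -0.43 (SE 0.30) came next. Limma called KDX1 higher (adjusted p = 0.0335), beside 0.279% of all probe sets, while the adjusted p was 0.158 for SLT2, 0.258 for PTP2 and 0.511 for RLM1.

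KDX1 kept the call without array 1 or array 3 of the 2 h wild-type group and lost it without any other 1 of the 9 wild-type arrays, with an adjusted p between 0.0155 and 0.0972. SLT2 passed without array 2 of the continuous group (adjusted p = 0.0428). Of all calls 64.9% were higher, against 51.4% with arrays set to 1 median. Beside these values, 10 general stress genes averaged log2 0.85 on the treated and 0.25 on the untreated fks1 array relative to untreated wild type, and 10 ribosome biogenesis genes -0.80 and -0.38. On the 2 h wild-type arrays the stress genes averaged 0.11, -0.15 and -0.81, and on the untreated ones 0.01, 0.60 and -0.61. The ribosome biogenesis genes averaged -0.44, -0.02 and 0.03 on the 2 h wild-type arrays. The part of these lists in the member values was not tested.

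Within fks1 cells the treated and the untreated array gave similar values for the members. The treated minus the untreated fks1 array gave log2 -0.01 for KDX1, -0.17 for SLT2, -0.16 for RLM1 and -0.32 for PTP2, within a range over the members of -0.50 (SWI6) to 0.37 (MKK2). The difference between the responses of fks1 and wild-type cells, treated minus untreated in each strain, was tested in the fit of 11 arrays, with the limit that the fks1 exposure may not match. KDX1 had the lowest value, -1.60 (SE 0.55, 95% interval -2.83 to -0.37), with an unadjusted p of 0.0160 and an adjusted p of 0.999 by limma. SLT2 stood at -0.88 (SE 0.72), PTP2 at -0.70 (SE 0.48) and RLM1 at -0.66 (SE 0.64). Limma called 0 of the 10 members and 0.0116% of all probe sets, and at an unadjusted p under 0.05 it passed 1 member, KDX1, beside 2.33% of probe sets. BCK1 and MKK2 were the 2 members with a positive value, against 47.1% of all probe sets.

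Across the 9 wild-type arrays, PTP2 was the member with the highest correlation with SLT2. Log2 signals of the pair had a Pearson r of 0.967 (exact permutation p = 0.000116, 0.00104 after adjustment over the 9 relations of SLT2 with the other members) and a Spearman rho of 0.967 (exact permutation p = 0.000165, adjusted 0.00149). Without arrays 1 and 3 of the continuous group, the 2 farthest from the median of SLT2, r was 0.919, and deviations from the group means gave 0.904. RLM1 had r = 0.916 with SLT2 (exact permutation p = 0.000601, adjusted 0.0027), a rho of 0.783 (exact permutation p = 0.0172, adjusted 0.0775), 0.663 without the 2 farthest arrays and 0.789 within groups. For KDX1, r was 0.626 (exact permutation p = 0.0707, adjusted 0.212) and rho 0.683, and r was 0.949 without those 2 arrays and 0.260 within groups. The 6 other members ranged from r = 0.397 (PKC1) to -0.284 (BCK1). The arrays share a scaling, and the permutations treat arrays of different groups as exchangeable.

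Over the same 9 arrays, the genes whose log2 signals were most like those of SLT2 among 5088 ranked genes were NCW2 (r = 0.978), PTP2, PRM5 (0.955), HBS1 (0.954) and AFR1 (0.949). Those most like RLM1 were HBS1 (0.984), MNC1 (0.960), PEP12 (0.945), DIA1 (0.944) and PTP2 (0.944). KDX1 had another set, TAL1 (0.924), YPL088W (0.920), YPK1 (0.919), RIB4 (0.914) and SMN1 (0.909). With the fks1 arrays added, NCW2 (0.989), PTP2 (0.983) and PRM5 (0.979) led for SLT2, MNC1 (0.970), HBS1 (0.968) and GAL3 (0.947) for RLM1, and YPL088W (0.972), DAS1 (0.954) and FLC2 (0.953) for KDX1. These are descriptions over few arrays, in which a few high arrays weigh heavily.

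The genes upstream of PKC1, 12 sensors, Rho1 activators and kinases, had smaller differences than SLT2. Limma called 0 of the 12 in every comparison. In untreated fks1 against untreated wild type 3 of them had an unadjusted p under 0.05 by limma, as 12.3% of all probe sets did. There 10 of 12 were positive (median 0.30), against 60.0% of all probe sets (median 0.12). The sensors MTL1 (log2 1.13, unadjusted p = 0.112 by limma) and MID2 (0.89, unadjusted p = 0.0154) had the largest differences. In fks1 against wild type at 2 h, 1 had an unadjusted p under 0.05, as 12.1% of all probe sets did, and the median was 0.24, with RHO1 at 0.62. With continuous glucosamine 2 had an unadjusted p under 0.05, beside 13.8% of all probe sets, the kinase PKH2 at 0.73 (adjusted p = 0.280 by limma) and the sensor WSC2 at -0.62 (adjusted p = 0.0907, and 0.0419 without array 3 of the 2 h group), and at 2 h of glucosamine 0 did. The medians in these wild-type comparisons were 0.04 and -0.04.

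Negative regulators of the cascade and of Rho1 had 6 of 7 genes tested, since BAG7 did not pass the filter on low signals. Limma called 0 of them in every comparison, and an unadjusted p under 0.05 was reached by 1, in 2 h fks1 against 2 h wild-type cells (12.1% of all probe sets). In untreated fks1 cells all 6 were positive under each of 3 scalings, against 60.0% of all probe sets in the deposited values. Their median was 0.48, against 0.12 for all probe sets, and the Slt2 and Fus3 phosphatase gene MSG5 stood at 0.51. Of the 6, 5 were positive in fks1 cells at 2 h, 3 with continuous glucosamine and 1 at 2 h in wild type. Over all probe sets 57.3%, 52.4% and 46.1% were positive in that order, so 3 of 6 was near the background. Among 6 partners and paralogs limma also called 0, while 3 had an unadjusted p under 0.05 in untreated fks1 cells, 1 in 2 h fks1 cells, 2 with continuous glucosamine and 0 at 2 h. The shares over all probe sets were 12.3%, 12.1%, 13.8% and 6.06% in that order, so 1 of 6 in 2 h fks1 cells was near the background. SMP1, the paralog of RLM1, was at log2 1.31 in untreated fks1 cells (limma adjusted p = 0.155) and 1.31 at 2 h. In untreated fks1 cells it lay at least 2-fold above each wild-type array, as 2.59% of all probe sets did. With continuous glucosamine it was at 0.95 (adjusted p = 0.0907). STB1, a partner of Swi6, stood at -1.15 in untreated fks1 cells.

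Of 11 genes of other MAP kinase cascades, limma called 1 in 1 comparison. It was called higher with continuous glucosamine, as 1.06% of all probe sets were. At an unadjusted p under 0.05 by limma, 4 were higher in untreated fks1 cells and 4 in 2 h fks1 cells. Of the 11, 0 were lower there, and the shares over all probe sets, in either direction, were 12.3% and 12.1%. With continuous glucosamine 2 were higher and 1 lower, beside 13.8% of all probe sets. At 2 h in wild type 2 were lower and 0 higher, beside 6.06% of all probe sets in either direction. SSK22, a kinase at the head of the osmotic stress cascade, read 222.6 and 212.6 on the treated and untreated fks1 arrays, 161.7, 194.3 and 178.1 in the continuous wild type, 92.4, 97.6 and 95.8 at 2 h, and 86.1, 100.1 and 89.8 untreated. Its continuous arrays lay above all arrays of the other wild-type groups, and it rose with continuous glucosamine (log2 0.95, SE 0.17, adjusted p = 0.0310 by limma). That call held without array 1 or 3 of the 2 h group and was lost without any other 1 of the wild-type arrays (adjusted p 0.0361 to 0.108). In fks1 cells it met the fold rule untreated (log2 1.21, limma adjusted p = 0.0647) and at 2 h (1.22, adjusted p = 0.0640). The rule was met in that direction by 2.59% and 2.50% of all probe sets. FUS3, the mating MAP kinase, stood at 0.99 with continuous glucosamine (adjusted p = 0.0750 by limma), PBS2, which activates Hog1, at 0.92 and 1.02 in untreated and 2 h fks1 cells, and KSS1 at 1.09 in untreated fks1 cells (adjusted p = 0.176).

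Genes listed as outputs of the cell integrity pathway held the most calls of the 7 lists chosen with earlier results of these data known. Of 16 tested, limma called 5 higher in untreated fks1 cells, namely SRL3 (log2 3.72, SE 0.59, adjusted p = 0.0253), the glucan synthase paralog GSC2 (3.19, SE 0.38), PRM5 (3.19, SE 0.39), PRM10 (2.58) and the chitin-glucan linking enzyme CRH1 (1.15, SE 0.16). Over all probe sets it called 0.418% higher there, and 0.279% higher in 2 h fks1 cells. In untreated fks1 cells limma called FKS1, the mutated gene, lower, and the median of the 16 was 1.23. SRL3 lost its call without any 1 of the 3 untreated arrays (adjusted p 0.00158 to 0.0770), and PRM10 without array 1 or 3 of them (0.00579 to 0.0691). In 2 h fks1 cells GSC2 (2.73, adjusted p = 0.0181) and PRM5 (2.29, adjusted p = 0.0415) were called higher by limma and FKS1 lower, with a median of 0.92, and PRM5 passed in 2 of 9 fits that left out an array, those without array 2 or 3 of the continuous group.

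With continuous glucosamine, 9 of the 16 were positive (median 0.15), near the share of 52.4% over all probe sets. Limma called SRL3 (log2 2.57, SE 0.42, adjusted p = 0.0272) and PRM5 (1.96, SE 0.28, adjusted p = 0.0265) higher, beside 1.06% of all probe sets. The cell wall protein gene NCW2 stood at 1.38 (adjusted p = 0.101, and 0.00478 without array 2 of the continuous group). NCW2 read 2853.5, 950.5 and 2918.8 on the continuous arrays and SRL3 605.2, 176.0 and 554.6, so that array 2 was low for these genes as for SLT2. SRL3 passed in 4 of 9 fits that left out an array and was lost without any 1 untreated array or array 1 or 3 of the continuous group (adjusted p 0.00198 to 0.104). PRM5 passed in 5 of 9 and was lost without any 1 untreated array or array 1 of the continuous group (0.00993 to 0.0977).

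At 2 h in wild type, all 16 output genes were positive under each of 3 scalings, against 46.1% of all probe sets in the deposited values. Their median was 0.35, against -0.02 for all probe sets. Limma called 0 of them, and 4 had an unadjusted p under 0.05, beside 6.06% of all probe sets. SRL3 stood at 1.68 (SE 0.42, adjusted p = 0.555), PRM5 at 0.96 (adjusted p = 0.620) and PRM10 at 0.72. In the fit of these 6 arrays SRL3 was called with the replicate block (SE 0.19, adjusted p = 0.0313 by limma) and not without it (adjusted p = 0.262).

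The 12 SBF and MBF targets, which Swi4 and Swi6 serve, had smaller differences than the leading output genes. Limma called 0 of 12 in every comparison, with medians of 0.37 in untreated fks1, 0.47 in 2 h fks1, -0.02 with continuous glucosamine and -0.14 at 2 h in wild type. An unadjusted p under 0.05 was reached by 2, 4, 1 and 0 of them in these comparisons, beside 12.3%, 12.1%, 13.8% and 6.06% of all probe sets, so that 2 and 1 of 12 lay near the background. GIC2, an effector of Cdc42, stood at 0.86 and 1.01 in untreated and 2 h fks1 cells (adjusted p = 0.0805 by limma at 2 h), MNN1 at -0.64 with continuous glucosamine and HO, the mating type switch endonuclease, at -0.71 at 2 h.

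**Figure D4:**
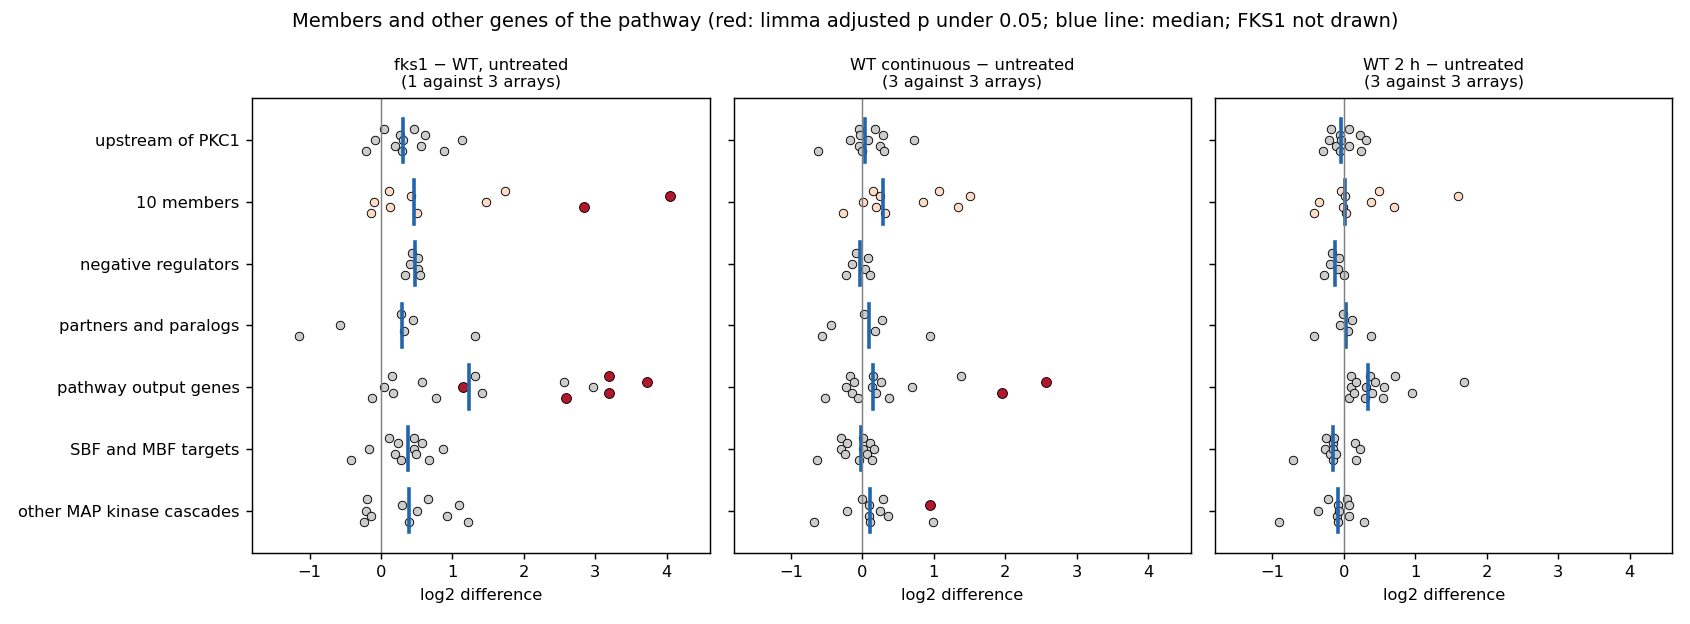
Log2 difference of every tested gene of 7 lists of the pathway in untreated fks1 cells, in continuous glucosamine and at 2 h of glucosamine, 1 panel a comparison, with medians as blue bars and genes past an adjusted p of 0.05 in red. FKS1 counts in the median of the output genes and is not drawn. The output genes hold most of the called genes, in lists chosen with earlier results of these data known.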

How the data were processed

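The deposited values are signal intensities, 1 per probe set and array, which were analysed and normalised by the authors in GeneChip Analysis Suite (version and settings not stated in the sources used here), per the labels. They are on a linear scale. The number of arrays limits the precision. The 10th percentile of the data, 7.7, served as a floor to which lower intensities were raised before log2 was taken. The 60 control probe sets of 9335 were left out, and a filter that asked for intensities over the floor on 3 or more of 9 wild-type arrays kept 8616 probe sets and left out 659. Genes were named through the platform's gene table and a RefSeq table of assembly R64: 6504 probe sets had 1 symbol, 328 several and 2443 no symbol.

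Differences were fitted with limma 3.58.1 (lmFit and eBayes with a variance trend, R 4.3.3) on the 9 wild-type arrays, and on all 11 for fks1 cells, with two-sided p-values adjusted by Benjamini-Hochberg over all tested probe sets. The fks1 cells were also described by a rule of at least 2-fold beyond each of the 3 wild-type arrays. Correlations and permutations used Python 3.11.15 with numpy 2.4.6, pandas 2.3.3 and scipy 1.17.1. The fit of continuous against untreated was tested on simulated data of the 9 wild-type arrays with independent noise. Fits of fks1 cells and fits with the replicate block were not tested in this way. Same-numbered arrays of the 2 h and the untreated group deviated together from their group means (r = 0.356, 0.570 and 0.517 for numbers 1 to 3), so these were treated as pairs in an alternative fit.

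Alternatives changed the floor, the filter, the scaling, the variance model, the arrays in the fit, the pairing, the fold of the rule and, in turn, each wild-type array. The text names all members, and from each list the called genes and at most the 3 largest differences in a comparison. The members and lists were chosen with earlier results of these data known. Sequences and genome positions are not reported here.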

Additional observations from a re-analysis of the deposited data

How the results depend on the processing

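Of 346 recomputed counts and medians over the members and over all probe sets, 251 kept within 1.5 times the count or within the spread, and 95 did not. Of 2066 recomputed differences of single genes, 1939 kept direction and side of the threshold, 62 lost a call, 21 gained one and 44 changed sign. The causes were not tested, beyond what each setting changes by construction.

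The number of called probe sets moved most. At 2 h against untreated it was 1 with log2(signal + 16), 1 after quantile normalisation, 0 with the 6 arrays compared, 17 with those 6 arrays and the replicate block, and 0 to 1 without single arrays. For continuous against untreated it was 18 with the control floor, 16 without the filter, 56 with arrays set to 1 median, 11 without the variance trend, and 2 to 182 without single arrays. Called members were then 1 with robust eBayes, 1 with the 6 arrays compared, and 0 to 1 without single arrays. For continuous against 2 h the count was 3 with the control floor and 2 to 9 without single arrays, and the member median was 0.11 after quantile normalisation, 0.11 with 1 median, and 0.073 to 0.38 without single arrays. Same-numbered arrays did not deviate together in these last comparisons (r from -0.24 to -0.01), and in fits of the 6 arrays compared the replicate block gave 0 calls, against 120 without it, in continuous against untreated and 0, against 5, in continuous against 2 h.

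For untreated fks1 cells the count was 224 with the control floor, 159 without the filter, and 20 to 51 without single arrays. Called members were 1 with the control floor, 1 without the filter, 1 with 1 median, 1 without the trend, and 1 to 3 without single arrays. The member median was 0.38 with log2(signal + 16), 0.26 after quantile normalisation and 0.26 with 1 median. The fold rule gave 142 probe sets with log2(signal + 16), 893 at 1.5-fold, 73 at 3-fold, and 382 to 474 without single arrays. For 2 h fks1 cells the count was 211 with the control floor, 63 with log2(signal + 16), 152 without the filter, and 18 to 33 without single arrays, with 0 to 1 called members. There the fold rule gave 145 with log2(signal + 16), 806 at 1.5-fold, 76 at 3-fold, and 394 to 500 without single arrays. For the difference of 2 h responses the count was 98 with the control floor, 61 without the filter, 0 with log2(signal + 16), 0 after quantile normalisation, 0 with 1 median, 0 without the trend, and 0 to 0 without single arrays.

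Members near 0 changed sign. At 2 h MKK1 was 0.064 after quantile normalisation and 0.020 with 1 median, and SWI4 0.052 with 1 median. Without single arrays PKC1 ran from -0.14 to 0.21, MKK1 from -0.27 to 0.15, SWI4 from -0.13 to 0.13, SWI6 from -0.075 to 0.16, and further PTP2 probe sets from -0.15 to 0.58 and from -0.077 to 0.63. With continuous glucosamine SWI4 was -0.031 after quantile normalisation, -0.051 with 1 median and -0.15 to 0.27 without single arrays. The PTP2 probe set under background was 6.29e-05 with log2(signal + 16) and -0.30 to 0.18 without single arrays. For continuous against 2 h SWI4 was -0.10 with 1 median, and without single arrays SWI4 ran from -0.15 to 0.27, PKC1 from -0.051 to 0.30, BCK1 from -0.13 to 0.31 and KDX1 from -0.54 to 0.027. In untreated fks1 cells SWI6 was -0.079 after quantile normalisation and -0.10 with 1 median, and MKK1 was -0.086 with 1 median and -0.0097 to 0.31 without single arrays. In 2 h fks1 cells BCK1 was -0.023 after quantile normalisation, -0.058 with 1 median and -0.20 to 0.24 without single arrays, and MKK1 ran from -0.29 to 0.13. For the difference of responses PKC1 ran from -0.34 to 0.0037, BCK1 from -0.10 to 0.34 and MKK1 from -0.42 to 0.0079. Motif and protein comparisons were not run, and the fold rule gives no value for a difference of responses.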
